A study of Mus musculus with 96 samples.

Results

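A set of 10 genes that mark recruited and lipid-associated macrophages was followed, gene by gene, through RNA sequencing libraries of liver cells from mice on an obesogenic diet: Ccr2, Ly6c2, Cx3cr1, Trem2, Gpnmb, Spp1, Cd9, Itgax, Fabp5 and Mmp12. They were chosen by symbol, as 10 of the 25095 gene symbols (42322 transcripts) in each expression table, with the transcript of highest mean in a table standing for its gene. All 10 were found in each of the 4 tables.

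The study asked how the clock and the lipid program of hepatocytes reach the macrophages beside them. It measured 96 libraries, 48 of isolated hepatocytes and 48 of isolated liver macrophages, from 4 genotypes at zeitgeber times ZT4, ZT10, ZT16 and ZT22 (ZT, hours after lights on in a 12 h light and 12 h dark cycle), with 3 libraries in each of the 32 groups. All mice were male, of the labelled strain C57BL/6J, carried floxed alleles, were injected in adulthood with an adeno-associated virus driven by the hepatocyte-specific TBG promoter, and then spent 4 weeks on a diet rich in fat and sucrose. Control mice received the virus encoding GFP. RevDKO mice had floxed Rev-erbα fl/fl Rev-erbβ fl/fl alleles and received the virus encoding CRE. RevScapTKO mice also carried Scap fl/fl and received CRE, so that Scap, whose product escorts the lipid-regulating SREBP factors to their activation, was targeted too, and ScapKO mice had Scap alone targeted. CRE was directed to hepatocytes, so the macrophages were not the targeted cells in any genotype. How the macrophages were isolated for these libraries is not given in the sources used here. The labels of the ScapKO hepatocytes conflict, since a cell type of liver macrophages stands beside titles that read hepatocyte, and they were treated as hepatocytes.

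Liver macrophages comprise resident Kupffer cells and cells derived from blood monocytes. Ccr2, the receptor for the chemokine CCL2, carries monocytes out of the marrow and into tissue, Ly6c2 encodes the surface antigen of classical inflammatory monocytes, and Cx3cr1, the fractalkine receptor, is expressed by monocytes and by many macrophages that they give rise to. In fatty liver, macrophages of a lipid-associated type carry the lipid receptor Trem2 and a program that includes the glycoprotein Gpnmb, the secreted phosphoprotein osteopontin (Spp1), the tetraspanin Cd9, the integrin subunit αX, or CD11c (Itgax), the fatty acid binding protein Fabp5 and the macrophage elastase Mmp12. None of these genes is exclusive to macrophages, since Spp1 and Cd9 are also made by bile duct cells, Fabp5 by hepatocytes and Itgax by dendritic cells.

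Values are RPKM, reads per kilobase of transcript scaled to library size, multiplied by 10 (RPKTM) and quantile normalized within each table, so levels were compared only within a table and the sequencing depth is unknown. On mm9, the build of the files, the transcripts lay at chr9:124016922-124023879 (Ccr2, NM_009915, plus strand), chr15:74938591-74942401 (Ly6c2, NM_001099217, minus), chr9:119957801-119977414 (Cx3cr1, NM_009987, minus), chr17:48485726-48491601 (Trem2, NM_001272078, plus) and chr6:48986517-49008181 (Gpnmb, NM_053110, plus). The others lay at chr5:104864130-104870072 (Spp1, NM_001204202, plus), chr6:125410284-125444778 (Cd9, NM_007657, minus), chr7:135273064-135294171 (Itgax, NM_021334, plus), chr3:10012585-10016610 (Fabp5, NM_001272097, plus) and chr9:7347374-7360461 (Mmp12, NM_001320076, plus). In the ScapKO tables Spp1 was represented by NM_001204233, which starts at 104865211, and in ScapKO hepatocytes Fabp5 by NM_010634, with the same span. These spans hold exons and introns and overlapped no other annotated gene. Ly6c2 has a near-identical neighbour, Ly6c1, and how reads were split between them is uncertain.

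The proximal promoters of the 3 members that were higher in RevScapTKO macrophages than in both other genotypes, Gpnmb, Itgax and Mmp12, are shown because they were called in the same 2 comparisons, which share their RevScapTKO libraries. Each run is the 250 bases before an annotated start, from RefSeq on GRCm38.p6, a later build than that of the expression tables, and capitals mark matches to the motifs named after them.
Gpnmb, chr6:49036268-49036517, plus strand: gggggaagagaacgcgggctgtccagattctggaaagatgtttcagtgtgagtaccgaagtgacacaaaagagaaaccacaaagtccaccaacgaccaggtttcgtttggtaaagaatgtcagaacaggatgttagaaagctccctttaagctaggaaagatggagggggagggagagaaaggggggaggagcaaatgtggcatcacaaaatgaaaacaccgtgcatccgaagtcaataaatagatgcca
Itgax, chr7:128129300-128129549, plus strand: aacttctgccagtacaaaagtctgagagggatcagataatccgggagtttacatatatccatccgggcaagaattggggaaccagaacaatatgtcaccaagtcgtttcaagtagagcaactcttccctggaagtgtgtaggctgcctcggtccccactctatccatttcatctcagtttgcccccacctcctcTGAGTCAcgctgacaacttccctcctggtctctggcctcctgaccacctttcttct
Mmp12, first start, chr9:7344147-7344396, plus strand: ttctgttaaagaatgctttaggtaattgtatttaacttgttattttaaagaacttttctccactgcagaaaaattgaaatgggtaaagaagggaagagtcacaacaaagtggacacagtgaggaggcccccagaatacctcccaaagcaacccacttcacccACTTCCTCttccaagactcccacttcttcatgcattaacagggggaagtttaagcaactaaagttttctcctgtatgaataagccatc
Mmp12, later start, chr9:7347124-7347373, plus strand: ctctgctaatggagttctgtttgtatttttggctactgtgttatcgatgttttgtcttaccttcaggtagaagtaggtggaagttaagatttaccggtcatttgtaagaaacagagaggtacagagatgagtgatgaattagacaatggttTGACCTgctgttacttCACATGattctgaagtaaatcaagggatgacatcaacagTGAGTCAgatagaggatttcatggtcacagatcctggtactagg

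Both strands were searched for 6 motifs, and a match is a description of letters, not a site of binding. The AP-1 motif (TGANTCA) was found in Itgax, 56 bases before the start, and at the later start of Mmp12, 44 bases before it, and it occurs in 6.75% of the 32851 promoters of the same length. The first start of Mmp12 held the PU.1 motif (GAGGAAGT, in 2.44% of promoters) on its minus strand, 88 bases before the start. Its later start also held the nuclear receptor monomer motif (AGGTCA, 14.0%) at 99 bases and the core of the M-box that MITF-family factors read (CATGTG, 12.3%) at 83 bases, and no matches overlapped. The window of Gpnmb held none of the 6, and none of the 4 windows held the clock E-box (CACGTG, 6.02%) or the sterol regulatory element searched (TCACNCCAC, 1.05%). Among the other members, Spp1 held the sterol regulatory element 61 bases before its first start beside a PU.1 motif at 113 bases. The later start of Spp1 held none of the 6 motifs. Ly6c2 held the PU.1 motif before each of its starts, and Cd9 the M-box core at 38 bases. Trem2 held the AP-1 motif at 9 bases and the nuclear receptor motif at 68. The windows of Ccr2 and Cx3cr1 held no match. Promoters were matched for 9 of the 10 members, with 12 entries.

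The libraries of the labelled cell types held RNA of other cells, and the targeted genes did not all follow the labels. In the hepatocyte libraries Scap was lower in RevScapTKO than in RevDKO by 1.40 ± 0.14 (SE, log2, adjusted p = 9.77e-09 by limma), whereas Nr1d1, which encodes REV-ERBα, was higher in the libraries labelled RevDKO than in Control by 1.55 ± 0.25 (adjusted p = 8.87e-05). Whether the counted reads lie outside the deleted part of Nr1d1 is not given in the sources used here. Nr1d1 ranged from 3.57 to 358 RPKTM in the Control hepatocyte libraries and from 39.9 to 359 in those of RevDKO. These levels do not show the REV-ERB side of the comparisons with RevDKO or RevScapTKO, which was thus taken from the label. Genes that REV-ERBs repress were not examined here as a check. Scap was also lower in RevScapTKO than in Control, by 1.30 ± 0.14 (adjusted p = 2.87e-08 by limma), so its levels go with the RevScapTKO label. The study reported a marked drop of both Rev-erb transcripts in hepatocytes. In RevScapTKO hepatocytes Nr1d1 was higher than in Control by 1.79 ± 0.25 (adjusted p = 2.13e-06) and Nr1d2, which encodes REV-ERBβ, by 0.95 ± 0.19 (adjusted p = 0.000318). In the macrophage libraries the hepatocyte transcript Alb had median levels of 73347, 53333 and 73347 RPKTM in Control, RevDKO and RevScapTKO, and the Kupffer cell lectin Clec4f had 4167, 2216 and 2648. Quantile normalization sets values by rank, and 73347 was also the highest Alb level in RevDKO. The Alb medians thus do not measure the amount of hepatocyte RNA. The mean log2(RPKTM + 1) of 12 Kupffer markers ranged from 7.67 to 10.6 over these 36 libraries. In 5 macrophage libraries the median correlation with the other libraries was under 0.9 (4 of RevDKO and 1 of Control), and the Control library at ZT22 replicate 3 had the lowest Kupffer score. In ScapKO, the ZT22 replicate 2 libraries of both cell types stood apart by their high endothelial markers. Tested results that change without such libraries are given with and without them.

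Across the macrophage libraries of Control, RevDKO and RevScapTKO, Spp1 was the most abundant member per length in each genotype by median, and Gpnmb or Ly6c2 the least. In Control the order of medians ran Spp1, Ccr2, Trem2, Cx3cr1, Cd9, Itgax, Fabp5, Mmp12, Ly6c2 and Gpnmb, and in RevScapTKO it ran Spp1, Mmp12, Ccr2, Itgax, Cd9, Trem2, Cx3cr1, Gpnmb, Fabp5 and Ly6c2. The ranges of neighbours overlapped at each step of both orders. Mmp12 stood at place 8 in Control and RevDKO and at place 2 in RevScapTKO, whereas Fabp5 stood at place 3 in RevDKO and at place 9 in RevScapTKO.

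The recruitment genes varied widely between libraries of one genotype. Ccr2 had a lowest, median and highest level of 2.03, 21.3 and 110 RPKTM in the 12 Control macrophage libraries, 6.24, 20.1 and 30.9 in RevDKO, and 16.4, 32.9 and 85.1 in RevScapTKO. The Control range enclosed that of both other genotypes, and 6 of 12 RevScapTKO libraries lay above the highest RevDKO library. Ly6c2 was low throughout, with 0, 2.14 and 6.53 RPKTM in Control, 0.793, 1.79 and 5.51 in RevDKO and 0.013, 4.37 and 26.9 in RevScapTKO. In RevScapTKO 4 of 12 libraries exceeded every Control library for Ly6c2, while the paralog Ly6c1 had medians of 0.837, 0.38 and 0.159. Cx3cr1 had 2.46, 14.8 and 59.7 RPKTM in Control, 0, 8.55 and 25.4 in RevDKO and 6.39, 10.6 and 22.2 in RevScapTKO, so that the ranges overlapped and the lowest 3 RevDKO libraries lay under all Control libraries.

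Among the lipid-associated genes, Gpnmb, Mmp12 and Itgax had their highest medians in RevScapTKO. Gpnmb had a lowest, median and highest level of 0, 1.86 and 4.93 RPKTM in Control, 0, 1.58 and 2.975 in RevDKO and 1.37, 10.4 and 46.0 in RevScapTKO. In RevScapTKO 11 of 12 libraries lay above the highest library of either other genotype, and the exception was a ZT16 library at 1.37. Mmp12 had 0.513, 4.997 and 23.6 RPKTM in Control, 1.90, 4.78 and 10.6 in RevDKO and 3.75, 35.7 and 117 in RevScapTKO. In RevScapTKO 10 of 12 libraries exceeded all RevDKO libraries and 8 of 12 all Control libraries for Mmp12. Itgax had 4.00, 11.2 and 34.2 RPKTM in Control, 3.48, 11.1 and 23.3 in RevDKO and 15.1, 27.8 and 78.9 in RevScapTKO. At each of the 4 time points all 3 RevScapTKO libraries were above all 3 RevDKO libraries for Itgax, the one member for which this held.

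The other lipid-associated genes overlapped more. Spp1 had a lowest, median and highest level of 10.3, 35.0 and 63.0 RPKTM in Control, 0, 27.9 and 51.7 in RevDKO and 32.7, 66.6 and 170 in RevScapTKO. In RevScapTKO 9 of 12 libraries exceeded every RevDKO library and 7 of 12 every Control library for Spp1. Trem2 had 0, 19.5 and 27.9 RPKTM in Control, 0, 6.15 and 34.7 in RevDKO and 8.36, 16.2 and 51.6 in RevScapTKO, with overlap of all ranges. It was listed at 0 in 1 Control library, the one with the lowest Kupffer score, and in 2 RevDKO libraries. Cd9 had 4.87, 11.2 and 40.5 RPKTM in Control, 4.78, 11.8 and 60.7 in RevDKO and 9.17, 23.3 and 39.0 in RevScapTKO, and the highest single library was of RevDKO. Fabp5 ran the other way, with 1.40, 7.71 and 19.4 RPKTM in Control, 4.76, 12.006 and 22.2 in RevDKO and 1.25, 5.15 and 11.0 in RevScapTKO, where 5 of 12 libraries lay under all RevDKO libraries.

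**Figure D1:**
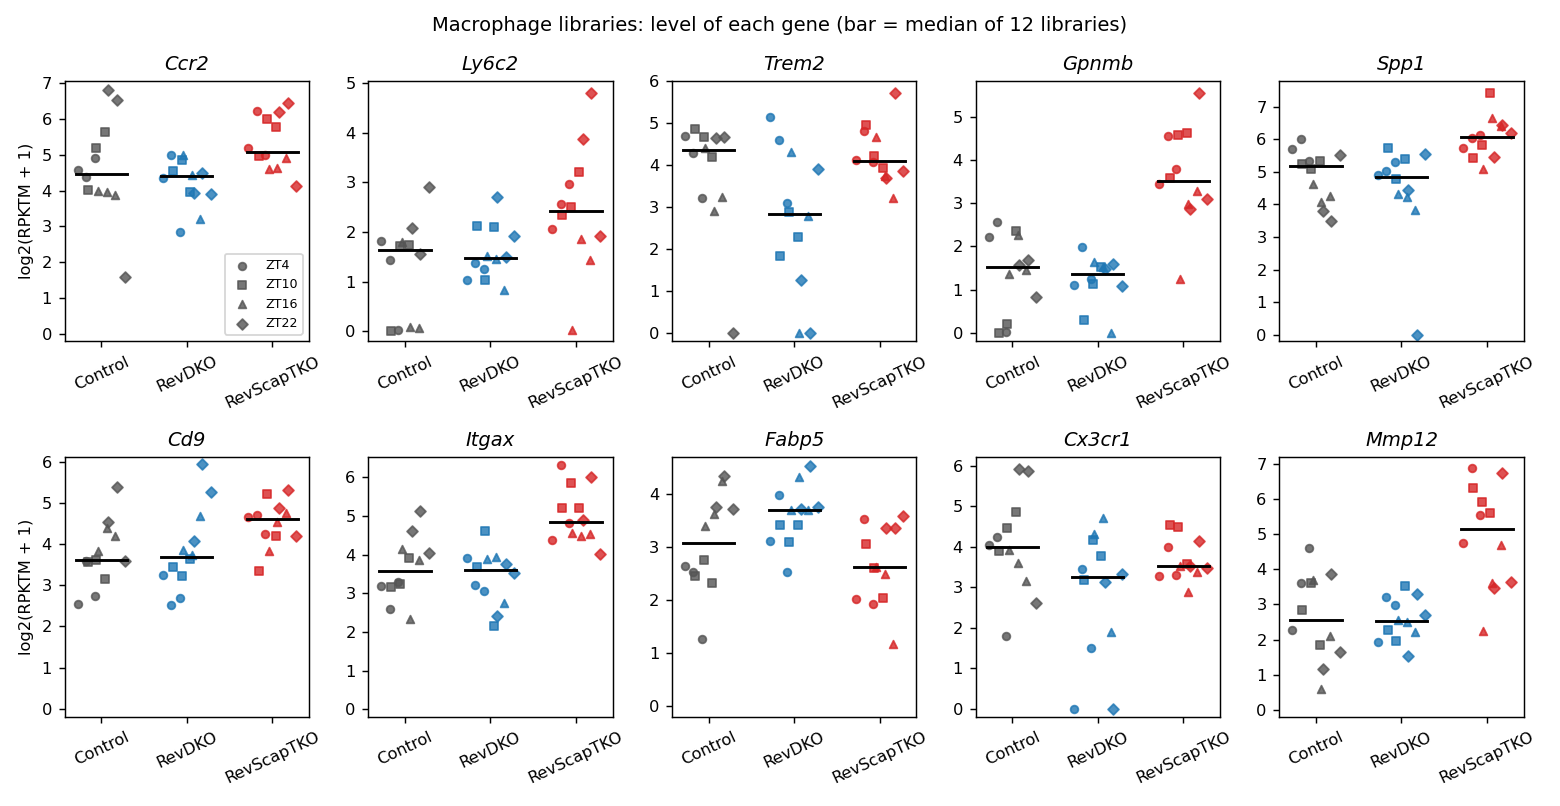
Level of each gene in the macrophage libraries, as log2(RPKTM + 1) on the vertical axis, for 12 libraries of each genotype, with the time point given by the marker shape and the median by the bar. For Gpnmb, 11 of 12 RevScapTKO libraries sit above all libraries of the other genotypes, whereas for Trem2, Cd9 and Cx3cr1 the genotypes overlap.

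Whether loss of hepatocyte REV-ERBs changed these genes in macrophages was tested by comparing RevDKO with Control over the 4 time points, as a difference in log2(RPKTM + 1), a scale that understates changes of low genes. None of the 10 members passed an adjusted p of 0.05 by limma, where 0.574% of the 13947 genes tested did (0.402% higher and 0.172% lower). At an unadjusted p under 0.05 by limma, for which the share of all genes is not given, 2 members passed. These were Cx3cr1, at -1.24 ± 0.43 (SE, n = 12 and 12, adjusted p = 0.206 by limma), and Trem2, at -1.14 ± 0.49 (adjusted p = 0.300). Leaving out 1 Control library, ZT22 replicate 3, brought both past the threshold, and they were then -1.52 and -1.53 with adjusted p of 0.0303 and 0.0384 by limma. Without the 5 libraries of low correlation Cx3cr1 stood at -1.33 (adjusted p = 0.299 by limma) and Trem2 at -0.69 (adjusted p = 0.641), neither past it. Fabp5 had the largest positive difference, 0.52 ± 0.26 (adjusted p = 0.370), with its mean higher in RevDKO at 4 of 4 time points. The median difference of the 10 members was -0.19, against -0.04 over all genes. The Kupffer score had a median of 9.52 in Control and 8.59 in RevDKO. In a fit with that score as an added term, one chosen only once the data had been seen, Trem2 stood at -0.55 and Cx3cr1 at -0.73. In bulk RNA, fewer cells of a type and less RNA per cell cannot be told apart.

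The question of what SREBP signaling adds was addressed by RevScapTKO against RevDKO. In the macrophage libraries of RevScapTKO, Gpnmb, Mmp12, Itgax and Spp1 were higher and Fabp5 was lower. That is 5 of 10 members called, where 3% of all genes tested were called, 1.23% higher and 1.78% lower. Gpnmb was higher by 2.42 ± 0.37 (SE, log2 scale, adjusted p = 5.33e-05 by limma), from a mean of 1.4745 RPKTM in RevDKO to 15.009 in RevScapTKO. Mmp12 was higher by 2.39 ± 0.42 (adjusted p = 0.000463 by limma), from a mean of 5.41 to 45.2 RPKTM. Itgax was higher by 1.61 ± 0.30 (adjusted p = 0.000822) and Spp1 by 1.605 ± 0.38 (adjusted p = 0.0109), and each of these 4 genes had the higher mean in RevScapTKO at 4 of 4 time points. Fabp5 was lower at 4 of 4 time points, by a log2 difference of -0.96 ± 0.26 (adjusted p = 0.0345 by limma), and it was called in 24 of the 36 fits that left out 1 library. The 12 libraries whose removal took its adjusted p above the threshold, to at most 0.0834, were 5 of RevDKO (ZT4 replicate 2, ZT10 replicates 1 and 3, ZT16 replicate 2 and ZT22 replicate 2) and 7 of RevScapTKO (ZT4 replicates 1 and 3, ZT10 replicates 2 and 3, ZT16 replicate 3 and ZT22 replicates 1 and 2), and without the 5 libraries of low correlation it was 0.153. Gpnmb exceeded 5 RPKTM, the level used as a filter, in 11 RevScapTKO libraries and in none of the other genotypes, so it entered the test only through the group where it was high. Without any filter Gpnmb had an adjusted p of 0.000368.

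The receptors Trem2 and Ccr2 were not called between RevScapTKO and RevDKO, at 1.58 ± 0.49 (adjusted p = 0.0718 by limma) and 1.12 ± 0.40 (adjusted p = 0.127). Ly6c2 stood at 0.89 ± 0.34 (adjusted p = 0.130), Cx3cr1 at 0.89 ± 0.43 (adjusted p = 0.269) and Cd9 at 0.63 ± 0.25 (adjusted p = 0.159). All 10 members had an unadjusted p under 0.05 in this comparison, 9 of them with a positive difference, and the median over the members was 1.35 against 0.04 over all genes. The share of all genes under that unadjusted p is not given, so the count cannot be read as particular to the members. Without the Control library at ZT22 replicate 3, which enters this comparison only through the shared spread, Trem2 had an adjusted p of 0.0227 and Ccr2 of 0.0129 by limma. Trem2 was also past the threshold without any of 3 RevDKO libraries, ZT16 replicates 1 and 3 and ZT22 replicate 3. None of the 12 Kupffer markers passed the test, with a median difference of 0.04, and 3 of 12 hepatocyte markers were lower in RevScapTKO, led by Cyp2e1 at -1.44. Adding the hepatocyte marker score as a covariate left 5 members called, with Trem2 at 0.97 (adjusted p = 0.287) and Ccr2 at 0.76 (adjusted p = 0.323), and adding the Kupffer score left 6, Trem2 among them at 1.46 (adjusted p = 0.0292). The share of all genes called in either covariate fit is not given, so these counts cannot be read as particular to the members.

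Against Control, 4 of 10 members were higher in RevScapTKO macrophages and none was lower, where 3.76% of all genes were called, 2.38% as higher and 1.38% as lower. The 4 were Mmp12 at 2.30 ± 0.42 (adjusted p = 0.000784 by limma), Gpnmb at 2.26 ± 0.37 (adjusted p = 0.000147), Itgax at 1.39 ± 0.30 (adjusted p = 0.00413) and Ly6c2 at 1.191 ± 0.34 (adjusted p = 0.0407). The call of Ly6c2, which exceeded 5 RPKTM in 4 RevScapTKO libraries and in 1 of each other genotype, was made in 22 of the 36 fits that left out 1 library, and it was lost without a filter (adjusted p = 0.0715). The 14 libraries whose removal took it away, with adjusted p up to 0.0943, were 6 of Control (ZT4 replicate 3, ZT10 replicate 1, ZT16 replicates 2 and 3 and ZT22 replicates 1 and 2) and 8 of RevScapTKO, replicates 2 and 3 at ZT4, ZT10 and ZT16 and replicates 1 and 2 at ZT22. Spp1 stood at 1.192 ± 0.38 (adjusted p = 0.0711 by limma) and Cd9 at 0.73 ± 0.25 (adjusted p = 0.107), each with the higher mean at 4 of 4 time points. Spp1 passed without any of 5 libraries (Control ZT22 replicate 3, RevDKO ZT22 replicates 2 and 3, and RevScapTKO ZT10 and ZT16 replicate 1) and Cd9 without RevScapTKO ZT10 replicate 1 (adjusted p = 0.0406). Without the 5 libraries of low correlation Spp1 stood at 1.09 (adjusted p = 0.00733 by limma) and Cd9 at 0.84 (adjusted p = 0.0387), both past the threshold, and Ly6c2 at 1.113 (adjusted p = 0.0628), no longer past it. With the hepatocyte score as a covariate 6 members were called, Spp1 (1.497, adjusted p = 0.0128) and Cd9 (0.88, adjusted p = 0.0339) joining the 4, and with the Kupffer score 3, Ly6c2 being lost (adjusted p = 0.0592). For these covariate fits too, the share of all genes called is not given. Ccr2 stood at 0.72 ± 0.40, Trem2 at 0.44 ± 0.49, Cx3cr1 at -0.35 ± 0.43 and Fabp5 at -0.44 ± 0.26, with adjusted p between 0.361 and 0.693 by limma. This comparison shares its RevScapTKO libraries with the one against RevDKO, so the values for a gene in both are not independent.

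**Figure D2:**
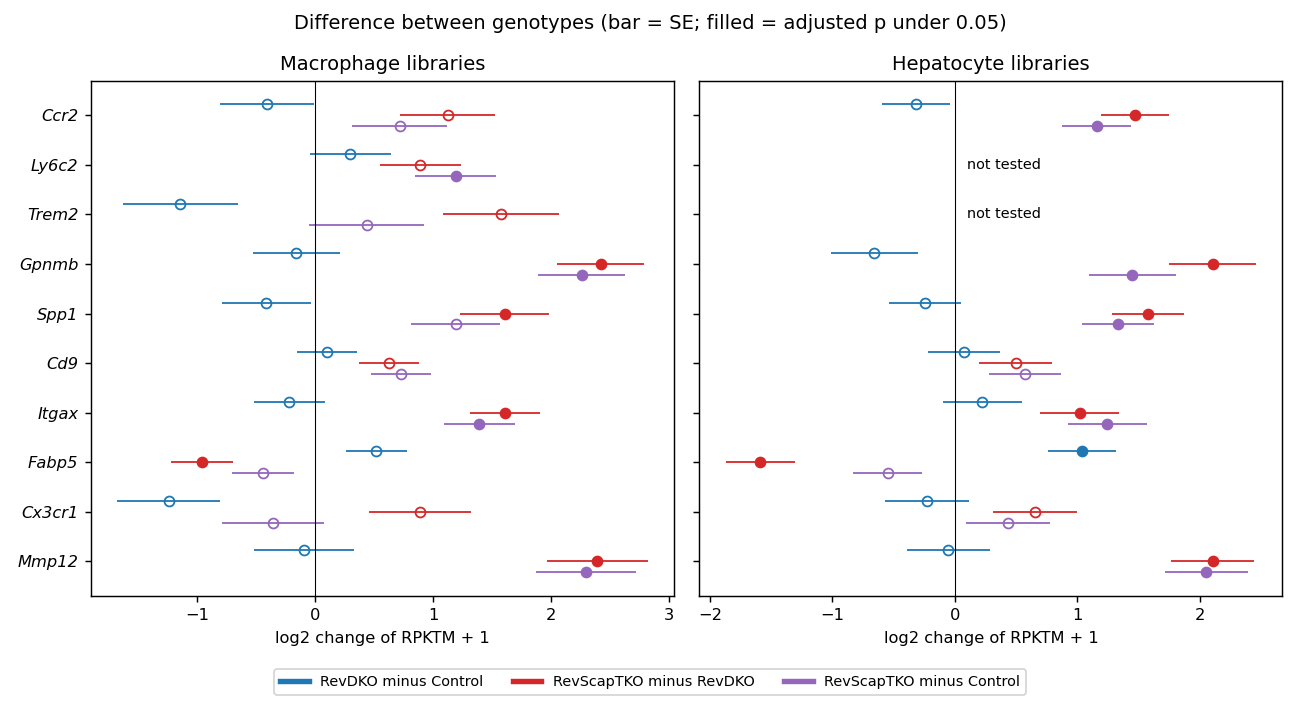
Differences between genotypes in log2(RPKTM + 1) for each gene in the macrophage libraries (left) and hepatocyte libraries (right), with bars for the SE and filled points for an adjusted p under 0.05 by limma. RevScapTKO lies above both other genotypes for Gpnmb, Itgax and Mmp12 in both panels, and Fabp5 lies below RevDKO in RevScapTKO in both.

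Few genes of the related lists passed the test in the macrophage libraries. Of 16 tested ligands, receptors and regulators that pair with the members, Ccl2, the ligand of CCR2, was higher in RevScapTKO than in RevDKO by 1.76 ± 0.39 (adjusted p = 0.00646 by limma), from a mean of 1.004 to 5.16 RPKTM. The first mean lay under the filter of 5 RPKTM and the second near it, and a fit of Ccl2 without a filter is not given. Ccl2 was not called in RevScapTKO against Control. Ppard, a lipid-sensing nuclear receptor, was higher in RevDKO than in Control by 2.07 ± 0.31 (adjusted p = 0.000222) and lower in RevScapTKO than in RevDKO, by a difference of -1.22 (adjusted p = 0.0234). No other gene of that list was called in a macrophage comparison. Of 19 tested genes of the wider lipid-associated program, none was called between RevScapTKO and RevDKO, and the lysosomal genes Cd63 (1.32 ± 0.36, adjusted p = 0.0339) and Ctsl (0.65 ± 0.16, adjusted p = 0.0126) were higher than in Control. Of 15 genes of recruited monocytes, 1 was called in the macrophage libraries, higher in RevScapTKO than in RevDKO. The medians of that list were 0.64 against RevDKO and -0.05 against Control, beside 0.04 and -0.04 over all genes.

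Markers of other cells moved in the same macrophage libraries. The stellate cell collagens Col1a1 and Col3a1 were higher in RevScapTKO than in RevDKO by 1.58 and 0.88 and than in Control by 1.89 and 1.21, as 2 of 10 stellate markers, while the sum of the 10 ran from 922 to 2158 RPKTM in RevScapTKO and from 945 to 2262 in RevDKO. Siglech, a marker of plasmacytoid dendritic cells, was the 1 of 9 dendritic markers called, higher by 1.32 and 1.54. The median difference of the 9 was 0.82 against RevDKO and 0.45 against Control, beside 0.04 and -0.04 over all genes. Their mean log2(RPKTM + 1) ran from 2.23 to 3.44 in Control, from 2.22 to 3.04 in RevDKO and from 2.86 to 4.17 in RevScapTKO, where 10 of 12 libraries lay above every RevDKO library, and their summed level from 120 to 241, 83.5 to 178 and 122 to 351 RPKTM. Sox9 was the 1 of 2 tested cholangiocyte markers called, higher than in Control by 1.91. No marker of neutrophils (7 tested), endothelial cells (10) or lymphocytes (11) was called, although the lymphocyte median was 0.62 against RevDKO and 0.41 against Control. The part of these cells in the values of Itgax and Spp1 was not tested.

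The hepatocyte libraries held low levels of the same genes, except Spp1, Cd9 and Fabp5. Ly6c2 and Trem2 did not reach 5 RPKTM in 3 libraries and were not tested, with highest values of 3.18 and 18.5 RPKTM, both in RevScapTKO. Mmp12 had a lowest, median and highest level of 0.282, 0.928 and 1.93 RPKTM in Control, 0.061, 0.327 and 5.20 in RevDKO and 0.061, 6.51 and 23.3 in RevScapTKO. In RevScapTKO 11 of 12 libraries exceeded every Control library for Mmp12, and the other was the lowest of both groups. Gpnmb had 0, 0.909 and 3.74 RPKTM in Control, 0, 0.012 and 1.91 in RevDKO and 0, 3.95 and 25.1 in RevScapTKO, where 10 of 12 libraries exceeded all RevDKO libraries. Spp1 had 11.9, 35.9 and 56.1 RPKTM in Control, 7.94, 28.0 and 79.6 in RevDKO and 20.5, 103 and 262 in RevScapTKO, with 7 of 12 libraries above all others. Ccr2 had medians of 2.64, 2.71 and 8.45 RPKTM, Itgax of 1.83, 2.46 and 6.24 and Cd9 of 19.7, 23.3 and 31.0 in the 3 genotypes, with overlapping ranges. Cx3cr1 had medians of 1.22, 1.36 and 2.20 RPKTM, with its highest library at 8.54 in RevScapTKO.

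Fabp5 was higher in RevDKO than in either other genotype in the hepatocyte libraries. It had a lowest, median and highest level of 2.601, 6.77 and 53.8 RPKTM in Control, 9.15, 15.9 and 42.1 in RevDKO and 0.658, 5.29 and 11.998 in RevScapTKO. A single Control library at ZT4 held the 53.8, and the next highest Control library was at 10.3, which overlapped only the lowest RevDKO libraries. Fabp5 was higher in RevDKO than in Control by 1.04 ± 0.28 (SE, log2 scale, adjusted p = 0.0247 by limma), as the 1 of 8 tested members called, where 4.43% of the 13326 genes were, 2% as higher and 2.43% as lower. The call was made in 30 of 36 fits that left out 1 library, was lost without any of 6 libraries (Control ZT4 replicates 1 and 2, Control ZT10 replicate 3, RevDKO ZT4 replicate 1, ZT16 replicate 1 and ZT22 replicate 3), with adjusted p up to 0.0595, and was lost without a filter (adjusted p = 0.0789). In RevScapTKO Fabp5 was lower than in RevDKO, by a difference of -1.59 ± 0.28 (adjusted p = 0.000115), with 10 of 12 libraries under all RevDKO libraries. Ppard, measured in the same libraries, was higher in RevDKO than in Control by 2.10. It was lower in RevScapTKO than in RevDKO, by a difference of -1.87 (adjusted p = 4.68e-09 by limma). With the hepatocyte score as a covariate, Fabp5 stood at -1.10 between RevScapTKO and RevDKO macrophages (adjusted p = 0.0340 by limma). The macrophage libraries held hepatocyte RNA, and its part in the differences of Fabp5 and Ppard there was not tested.

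Between RevScapTKO and RevDKO, 6 of 8 tested members were called in the hepatocyte libraries, in a comparison in which 26.2% of all genes were, 13.5% as higher and 12.7% as lower. Mmp12 was higher by 2.11 ± 0.34 (adjusted p = 3.18e-05 by limma), Gpnmb by 2.11 ± 0.36 (adjusted p = 6.16e-05), Spp1 by 1.58 ± 0.30 (adjusted p = 0.00023), Ccr2 by 1.475 ± 0.28 (adjusted p = 0.00025) and Itgax by 1.02 ± 0.32 (adjusted p = 0.0192), beside the lower Fabp5. Against Control, the same 5 genes were higher, where 35.9% of all genes were called (17.3% as higher and 18.7% as lower), by 2.05 for Mmp12, 1.45 for Gpnmb, 1.33 for Spp1, 1.16 for Ccr2 and 1.25 for Itgax, with adjusted p between 2.5e-05 and 0.00327 by limma. Cd9 and Cx3cr1 were not called, at 0.50 and 0.66 against RevDKO and 0.57 and 0.43 against Control, although Cd9 passed against Control without replicate 1 of RevScapTKO at ZT4, ZT10 or ZT16 (adjusted p down to 0.0343). Gpnmb, Mmp12 and Itgax passed the filter almost wholly through RevScapTKO, which held 4 of 4, 9 of 10 and 8 of 9 of their libraries above 5 RPKTM.

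Markers of macrophages moved with these genes in the hepatocyte libraries. Of 12 Kupffer markers, 11 were higher in RevScapTKO than in RevDKO (median 1.01) and 10 than in Control (median 1.10), and their summed level ran from 1064 to 5712 RPKTM in RevScapTKO against 580 to 2343 in RevDKO and 462 to 3282 in Control. Clec4f had medians of 231, 266 and 766 RPKTM in the 3 genotypes. Endothelial markers were higher in 7 of 10 and stellate markers in 9 of 10 against RevDKO. With the Kupffer score as a covariate, Fabp5 alone among the members was called between RevScapTKO and RevDKO, while Mmp12 stood at 1.502 (adjusted p = 0.0852 by limma), Gpnmb at 1.56 (adjusted p = 0.0961), Spp1 at 0.86 (adjusted p = 0.335), Ccr2 at 0.76 (adjusted p = 0.377) and Itgax at 0.48 (adjusted p = 0.756). No member was called against Control in that fit, with Mmp12 at 1.45 (adjusted p = 0.0526 by limma). The Kupffer score itself differed by genotype, with medians of 5.86 in Control, 6.14 in RevDKO and 7.24 in RevScapTKO. The share of all genes called in that fit is not given, so the lost calls cannot be read as particular to the members.

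Over the 36 hepatocyte libraries, as deviations from the mean of genotype and time point, Pearson's r with the Kupffer score was 0.51 for Ccr2, 0.44 for Spp1, 0.43 for Ly6c2, 0.36 for Trem2 and Mmp12, 0.33 for Itgax, 0.31 for Gpnmb, 0.21 for Cd9, 0.12 for Fabp5 and 0.08 for Cx3cr1. These are descriptions, since both values of a point come from 1 library and 1 normalization.

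**Figure D3:**
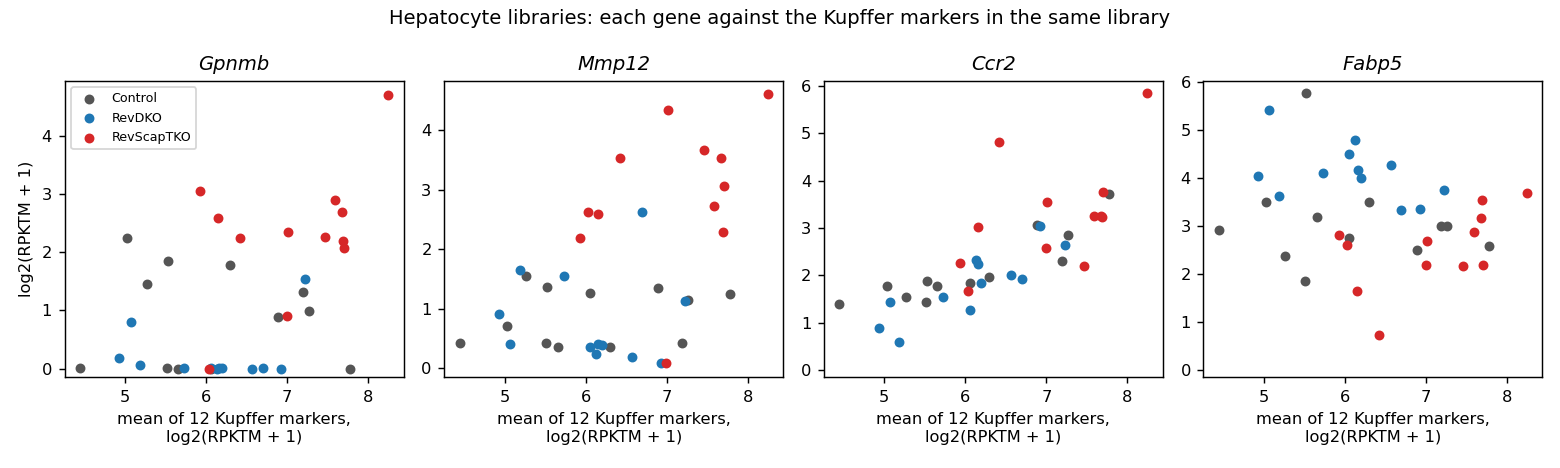
Level of Gpnmb, Mmp12, Ccr2 and Fabp5 in each of the 36 hepatocyte libraries, as log2(RPKTM + 1), against the mean of 12 Kupffer markers in the same library on the same scale, coloured by genotype. RevScapTKO libraries lie to the right, with a median Kupffer score of 7.24 against 5.86 in Control and 6.14 in RevDKO, and the Fabp5 levels of RevDKO lie mostly above those of RevScapTKO.

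The daily pattern of the members was examined next. In Control macrophages Cd9 had a mean of 7.21 ± 3.38 (SD, n = 3) at ZT4, 9.94 ± 1.85 at ZT10, 16.9 ± 3.28 at ZT16 and 24.6 ± 14.8 RPKTM at ZT22, and in RevDKO it had 6.26 ± 1.99, 9.88 ± 1.5, 16.7 ± 6.83 and 38.1 ± 22.4. Both genotypes were thus lowest at ZT4 and highest at ZT22, with a wide spread at ZT22. In RevScapTKO Cd9 had 22.5 ± 3.97, 20.8 ± 13.7, 20.4 ± 6.50 and 28.2 ± 10.9 RPKTM, and at ZT4 all 3 libraries lay above all 3 of RevDKO. Fabp5 in Control macrophages had 3.80 ± 2.09, 4.76 ± 0.94, 12.9 ± 4.40 and 14.7 ± 4.03 RPKTM, so that the lights-off libraries lay above all of the lights-on libraries. In RevDKO Fabp5 had 9.07 ± 5.19, 8.999 ± 1.23, 14.4 ± 4.07 and 15.7 ± 5.68 RPKTM, and in RevScapTKO 5.49 ± 4.40, 5.18 ± 2.117, 3.70 ± 2.14 and 9.84 ± 1.02.

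Gpnmb and Mmp12 in RevScapTKO macrophages were lower at ZT16 than at ZT10. Gpnmb had means of 15.2 ± 6.71, 19.2 ± 7.21, 5.66 ± 3.83 and 19.975 ± 22.6 RPKTM at the 4 times, and Mmp12 62.9 ± 48.1, 62.1 ± 15.8, 13.3 ± 10.8 and 42.7 ± 55.3. All 3 libraries at ZT10 exceeded all 3 at ZT16 for both genes, and the spread at ZT22 came from 1 library, at 46.0 RPKTM for Gpnmb and 106 for Mmp12, while the other libraries of that time, at 6.30 and 7.58 for Gpnmb and 10.042 and 11.5 for Mmp12, lay within the range at ZT16. In Control and RevDKO the means of Gpnmb stayed between 1.09 and 2.87 RPKTM at all times. Spp1 in Control macrophages had means of 51.0 ± 11.998, 36.4 ± 3.10, 19.2 ± 3.95 and 22.6 ± 19.0 RPKTM, with all ZT4 and ZT10 libraries above all ZT16 libraries. Itgax in Control had means of 7.31 ± 1.99 RPKTM at ZT4 and 24.4 ± 9.35 at ZT22, while in RevDKO its means lay between 9.12 and 12.8.

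**Figure D4:**
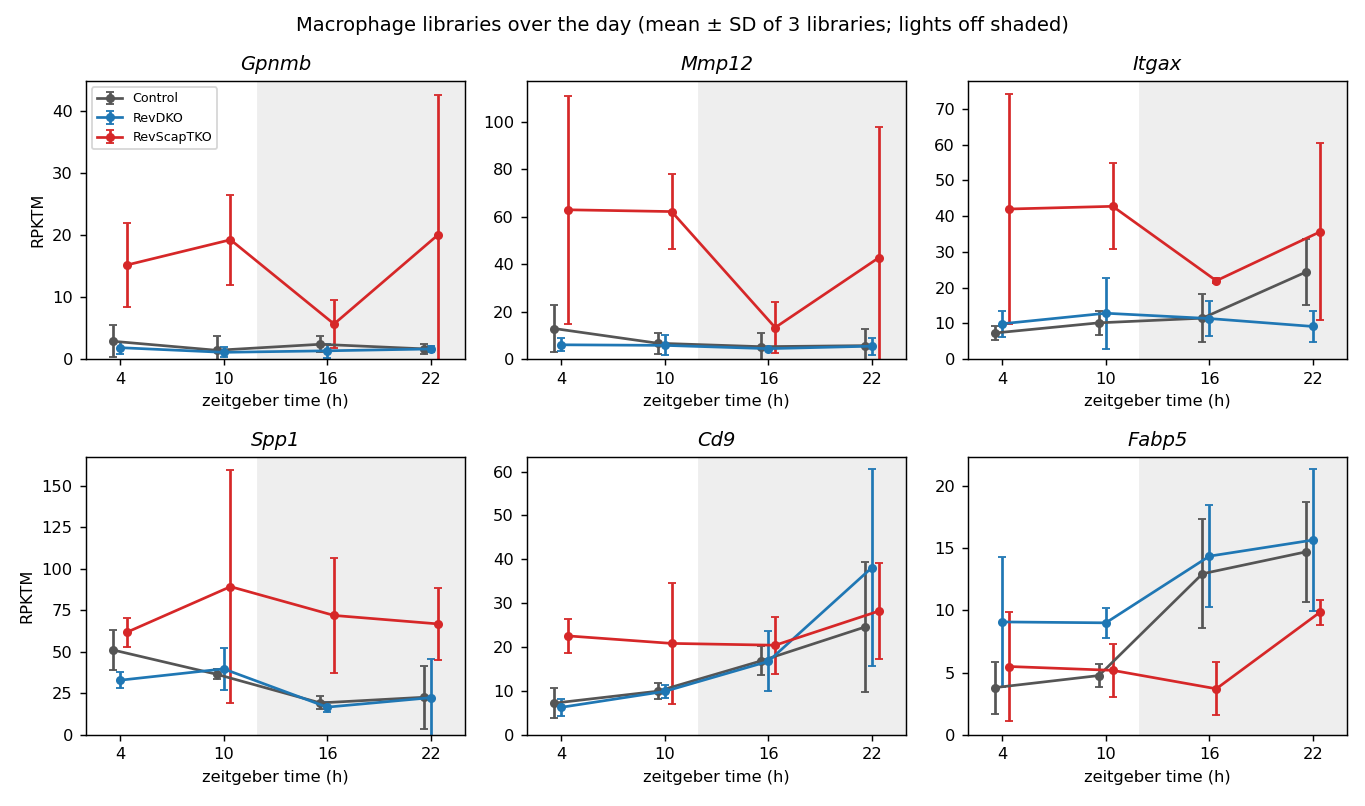
Mean level in RPKTM with its SD (n = 3 libraries) against zeitgeber time in hours for 6 genes in the macrophage libraries of 3 genotypes, with the dark phase shaded. Cd9 and Fabp5 are highest at ZT22 in Control and RevDKO, and Gpnmb and Mmp12 in RevScapTKO have means of 5.66 and 13.3 RPKTM at ZT16, while their means at ZT22 rest on 1 high library.

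A changed rhythm between genotypes, tested as a difference in the 24 h cosine and sine terms, was called for none of the members in the macrophage libraries, for RevDKO against Control or RevScapTKO against RevDKO, where 0% of genes were called in each. None was called in the hepatocyte libraries either, where 0.203% and 0% of genes were, and no member had an unadjusted p under 0.05 by limma in any of the 4 tests. The smallest was that of Cd9 between RevScapTKO and RevDKO macrophages (unadjusted p = 0.0542). In simulated data 40% of rhythm changes of 3 log2 units peak to trough were recovered over 13947 macrophage genes and 80% over 13326 hepatocyte genes, simulated for RevDKO minus Control.

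Rhythms within a genotype were called after the method of the study, with JTK_CYCLE on the series of 12 libraries entered 2 times. Entering it 2 times makes every p smaller without adding data, so calls with the series entered once are given beside them. The code was written anew, and its periods and filter on level were not those of the study, so calls and shares can differ from the published ones. The filter kept 8, 8 and 10 members in Control, RevDKO and RevScapTKO macrophages and 4, 4 and 8 in their hepatocyte libraries. In ScapKO it kept 9 in macrophages and 6 in hepatocyte libraries. Shares are over all genes kept. In Control macrophages Spp1 (peak at ZT7), Cd9 and Fabp5 (both ZT19) were called, 3 members where 20.2% of genes were, and Cd9 (exact JTK_CYCLE p = 0.0303) and Fabp5 (exact JTK_CYCLE p = 0.0152) were also called with the series entered once, where 2.48% were. In RevDKO macrophages Spp1, Cd9, Fabp5 and Cx3cr1 were called (28.2% of genes), and Cd9 alone with the series entered once (exact JTK_CYCLE p = 0.0152, 4.92% of genes). In RevScapTKO macrophages Gpnmb and Mmp12 (both ZT7) were called (15.4% of genes) and none with the series entered once (1.94%). The hepatocyte score of Control macrophages was 11.3 to 11.5 at ZT4 and 10.8 to 11.1 at ZT10. It was 11.4 to 11.9 at ZT16 and 11.2 to 11.8 at ZT22. In RevDKO macrophages it was 10.8 to 11.4 at ZT4 and 11.8 to 11.9 at ZT22. Their Kupffer score was 9.12 to 10.2 and 7.78 to 8.53 at these times. The part of this makeup in the macrophage rhythms was not tested. In hepatocyte libraries Ccr2 was called in all 3 genotypes, with peaks at ZT19, ZT19 and ZT22. Its Control means were 2.24 ± 0.54, 2.03 ± 0.37, 3.15 ± 0.70 and 8.598 ± 3.21 RPKTM (SD, n = 3). The Kupffer score of the same libraries moved with it, from 4.45 to 5.53 at ZT4 and 6.89 to 7.78 at ZT22 in Control and from 5.07 to 5.73 and 6.57 to 7.22 in RevDKO, as did the endothelial score in Control (5.70 to 6.24 and 7.35 to 7.95), and their part in the rhythm of Ccr2 was not tested. With Ccr2, 2 members were called in Control (29% of genes), 2 in RevDKO (29.7%) and 3 in RevScapTKO (20.8%), and with the series entered once Ccr2 alone was called, in Control (10.3%) and RevDKO (8.36%) and not in RevScapTKO (2.7%). A 24 h cosine regression across all genes called no member in any genotype, where limma called 8.98% of genes in Control, 5.4% in RevDKO, 0% in RevScapTKO and 1.85% in ScapKO hepatocytes and 0%, 0.851%, 0.0239% and 0% in the macrophages of the same genotypes. The difference between genotypes in these calls was tested only by the cosine and sine test.

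ScapKO libraries were normalized in tables of their own with no Control, so their values are a description that cannot be set against the other genotypes. In ScapKO macrophages Trem2 was the most abundant member per length, with a lowest, median and highest level of 25.1, 232 and 347 RPKTM. Mmp12 had 14.9, 113 and 562 RPKTM, Itgax 19.97, 75.0 and 223, Gpnmb 4.74, 62.0 and 481 and Cx3cr1 19.0, 55.9 and 217. Ccr2, Spp1, Cd9 and Fabp5 had medians of 35.0, 27.3, 22.8 and 9.74 RPKTM, and Ly6c2 was listed at 0 in 7 of 12 libraries. The library at ZT22 replicate 2, which stood apart by its hepatocyte and endothelial markers, held the lowest Trem2 and Ccr2 and the highest Cd9 (80.4 RPKTM). The means of Gpnmb at ZT4, ZT10, ZT16 and ZT22 were 199 ± 245, 160 ± 97.2, 63.9 ± 67.6 and 30.2 ± 28.0 RPKTM (SD, n = 3), and those of Mmp12 301 ± 247, 276 ± 191, 80.2 ± 56.9 and 71.7 ± 71.8. These 2 members were called rhythmic with the series entered 2 times (21.4% of genes) and none with it entered once (3.25%). The Kupffer score had a median of 12.1, and Clec4f of 32025 RPKTM, in this table.

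In ScapKO hepatocyte libraries Spp1 had a lowest, median and highest level of 22.8, 63.9 and 136 RPKTM and Cd9 8.46, 28.5 and 57.1, while the other 8 members had medians between 0 and 4.00. Gpnmb had means of 9.30 ± 9.22, 4.40 ± 2.91 and 0.895 ± 1.55 RPKTM at ZT4, ZT10 and ZT16 (SD, n = 3) and was listed at 0 in all 3 libraries at ZT22, as was Mmp12. Gpnmb and Cx3cr1 were called rhythmic with the series entered 2 times (19.1% of genes) and no member with it entered once (5.08%).

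The members did not vary as 1 block between macrophage libraries of the same group. Over the 36 libraries, as deviations from the mean of genotype and time point, Pearson's r between pairs of members was positive in 36 of 45 pairs with a median of 0.20, and ran from -0.32 (Spp1 with Fabp5) to 0.53 (Ccr2 with Itgax). Ccr2, Trem2 and Cx3cr1 varied with the Kupffer score (r of 0.50, 0.60 and 0.61), whereas Gpnmb, Mmp12 and Spp1 did so little (0.10, 0.15 and -0.17). Fabp5 stood at 0.41, Itgax at 0.22, Cd9 at -0.02 and Ly6c2 at -0.03. All points share library, normalization and a mixed makeup of cells, so these are descriptions.

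**Figure D5:**
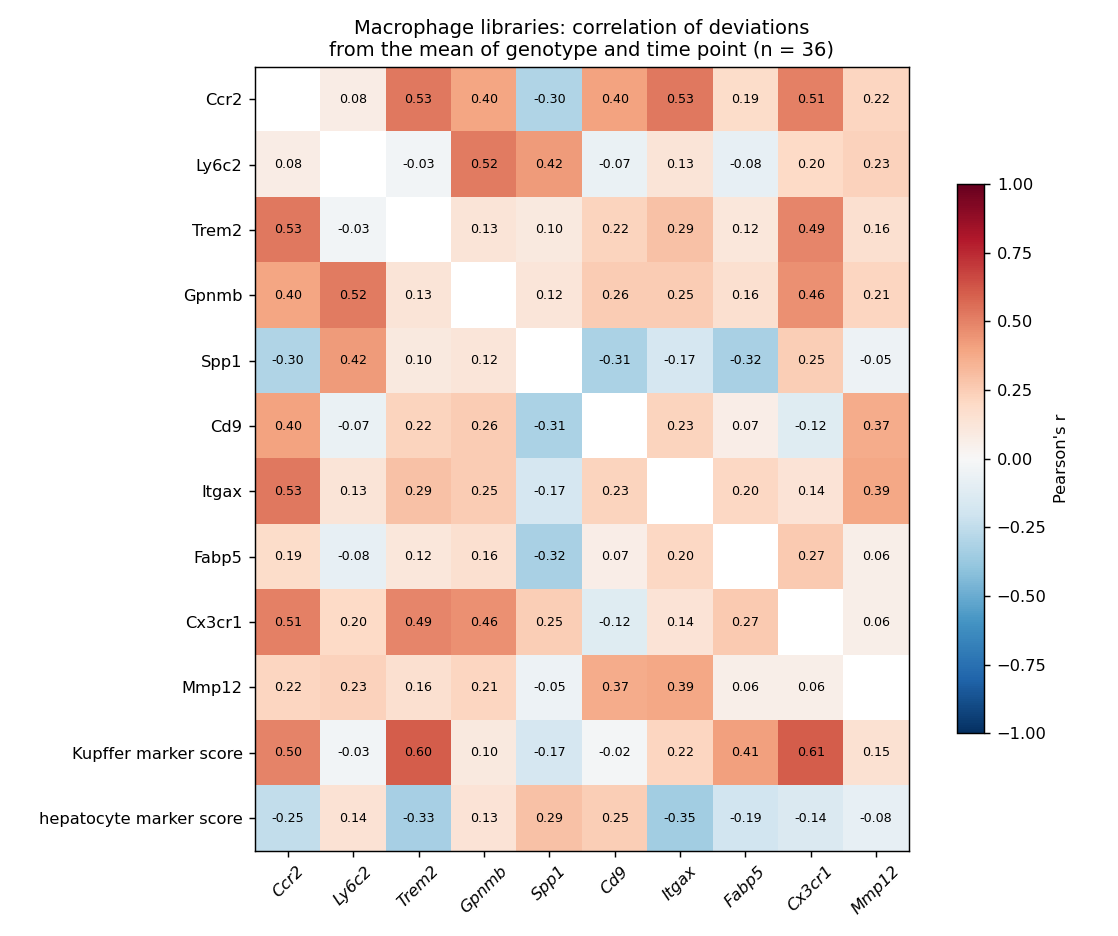
Pearson's r between the members, and between each member and the mean of the Kupffer and the hepatocyte markers, over 36 macrophage libraries taken as deviations from the mean of genotype and time point. Ccr2, Trem2 and Cx3cr1 correlate at 0.49 to 0.53 with each other and at 0.50 to 0.61 with the Kupffer score, and Spp1 is negative with Ccr2, Cd9 and Fabp5 (-0.30 to -0.32).

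The genes whose variation was most like that of each member over these 36 libraries, by Pearson's r of the same deviations, were Ccdc88a, Evi2a and Ppfia4 for Ccr2 (0.82, 0.80 and 0.79), Spc24, Ugt2b37 and Ccr7 for Ly6c2 (0.67, 0.61 and 0.56) and Pik3ap1, Cd180 and Gbp9 for Cx3cr1 (0.81, 0.80 and 0.80). For Trem2 they were Nedd9, Rnf180 and Rnf113a2 (0.91, 0.90 and 0.84), for Gpnmb Rfc5, Slc16a3 and Cidec (0.67 each) and for Spp1 Rabggtb, Psmd9 and Chmp6 (0.88, 0.86 and 0.85). For Cd9 they were Rslcan18, Gpx7 and B930095G15Rik (0.69, 0.69 and 0.68), for Itgax Mx1, Mrps9 and Pphln1 (0.72, 0.72 and 0.70), for Fabp5 Ythdf2, Pphln1 and Bin3 (0.70 each) and for Mmp12 Knstrn, Limd1 and Tgds (0.66, 0.62 and 0.62). Each is the highest of many genes, and no member was among the 3 nearest of another.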

How the data were processed

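Per the labels and methods, total RNA of isolated hepatocytes and liver macrophages was depleted of ribosomal RNA and made into stranded libraries, and the authors aligned reads with STAR to mm9 and counted RefSeq transcripts with HOMER. Versions, and whether counting used the strand, are not given in the sources used here. The deposited values are an RPKM scaled by 10 (RPKTM), quantile normalized in each of 4 tables apart, so depth is unknown and precision rests on the 3 libraries of each group, called biological replicates by the study.

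The transcript of highest mean stood for its gene, and genes above 5 RPKTM in at least 3 libraries were kept. On log2(RPKTM + 1), limma 3.58.1 (R 4.3.3, mean-variance trend) fitted a mean to every combination of genotype and time point over 36 libraries, and contrasts of means and of rhythms were tested with p-values adjusted by the method of Benjamini and Hochberg over all genes (threshold 0.05). JTK_CYCLE was written anew in Python 3.11.15, with periods of 18 h and 24 h, its exact p multiplied by the 7 patterns tried, and a ratio of highest to lowest mean above 1.5 in at least 2 libraries above 5 RPKTM. Scripts were tested on simulated data, where 40% of mean changes of 1 and 93% of 2 (log2) were recovered for RevDKO minus Control over 13947 macrophage genes. All 10 members are named, and of other lists at most 3 genes called in each direction in a macrophage comparison, by size, plus the same genes in hepatocyte libraries. A marker score is the mean log2(RPKTM + 1) of a list. Alternatives covered pseudocount, filter, transcripts, covariates, the replicate block and each library left out. The members, lists and tests were chosen with earlier results of these data known. No test was run between tables. 1 gene of the monocyte list is not reported here.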

Additional observations from a re-analysis of the deposited data

How the results depend on the processing

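The calls of Itgax and Mmp12 in macrophages, in RevScapTKO against RevDKO and against Control, were made under 10 of 10 alternatives and in 36 of 36 fits that left out 1 library, and those of Gpnmb under 9 of 9 (it was not tested under the stricter filter of 12 libraries) and 36 of 36. Counts of called members changed under these alternatives, among others, and the share of all genes called under each is not given. In macrophages, RevScapTKO minus RevDKO had 3 with a pseudocount of 0.1 and 6 with the Kupffer score as a covariate. RevScapTKO minus Control had 2 with the stricter filter, 3 with the Kupffer score and 6 with the hepatocyte score as a covariate. In hepatocyte libraries, RevDKO minus Control had 0 without a filter, RevScapTKO minus RevDKO had 3 with the stricter filter and 1 with the Kupffer score as a covariate, and RevScapTKO minus Control had 2 and 0. With the series entered once, rhythmic members numbered 1 in Control, 1 in RevDKO, 0 in RevScapTKO and 0 in ScapKO hepatocytes. In macrophages they numbered 2 in Control, 1 in RevDKO, 0 in RevScapTKO and 0 in ScapKO. By cosine regression they numbered 0 in all 8 sets, and without a filter 4 in RevDKO and 4 in ScapKO hepatocytes. Leaving out 1 library at a time gave 0 to 2, 4 to 7 and 3 to 6 called members in the 3 macrophage comparisons, 0 to 1, 6 to 6 and 5 to 6 in the hepatocyte ones, and 0 to 0 changed rhythms. Rhythmic members ranged from 1 to 2, 1 to 3, 1 to 3 and 1 to 3 in Control, RevDKO, RevScapTKO and ScapKO hepatocytes and from 3 to 4, 2 to 4, 0 to 4 and 0 to 4 in macrophages. Directions turned only for small differences. In RevDKO minus Control macrophages Mmp12 was 0.029 with the Kupffer score and 0.037 without the 5 libraries of low correlation (both chosen after seeing the data); in RevScapTKO minus Control macrophages Trem2 was -0.015 with the hepatocyte score and Cx3cr1 0.063 with the Kupffer score; and in RevDKO minus Control hepatocytes Mmp12 was 0.011 with a pseudocount of 10. With 1 library left out, RevDKO minus Control ran from -0.29 to 0.11 for Mmp12, -0.36 to 0.028 for Gpnmb, -0.69 to 0.0039 for Spp1 and -0.012 to 0.23 for Cd9 in macrophages, and from -0.017 to 0.23 for Cd9, -0.22 to 0.088 for Mmp12 and -0.38 to 0.0069 for Cx3cr1 in hepatocytes. The cause was not tested. Without the 5 libraries of low correlation 0, 4 and 5 members were called in the 3 macrophage comparisons. Same-numbered libraries of different genotypes are from different animals. Whether hepatocyte and macrophage libraries of the same genotype, time and number came from the same animal is not given in the sources used here. Results of both cell types may thus not be independent. Deviations of same-numbered libraries correlated at -0.20 to 0.37 (median 0.088, 15 of 36 pairs over 0.1) in macrophages. In hepatocytes they correlated at -0.14 to 0.28 (median 0.048, 13 of 36 pairs over 0.1). Of the 3 libraries of another genotype at the same time, the most alike carried the same number in 42 of 72 checks in each cell type. Whether same-numbered libraries share a batch was not tested. With the replicate block 0, 5 and 4 members were called in macrophages and 1, 6 and 5 in hepatocytes. Against Control in macrophages, Spp1 gained (adjusted p = 0.0400 by limma) and Ly6c2 lost (0.0577) its call. Depth is unknown, so low values of Ly6c2 and Gpnmb carry no counting interval.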
